A study of Mus musculus with 36 samples.

Results

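Of the 51734 gene symbols in the count table, 35 were taken as genes of fibroblast growth factor (FGF) signalling: 18 secreted FGF ligands, 4 intracellular FGF homologous factors, 4 receptors, and 9 genes of the feedback and target programme. They were chosen by name and not by a rule on their values, but with earlier results of these data known. Of the 35, 32 had enough counts to be tested, and Fgf6, Fgf16 and Fgf23 did not. A mean of at least 5 CPM (counts-per-million) in 1 or more groups was reached by 25 of the 35, and 10 stayed under it in every group. The study sequenced mRNA of E14 mouse embryonic stem cells (ESC), kept in medium with KnockOut serum replacement and LIF, and of neural precursor cells (NPC) made from them with retinoic acid. The 18 libraries used here formed 6 groups of 3. WT, dCD and MLL2dTAG were each measured as ESC and as NPC harvested on day 4, out of 36 samples in 14 groups in the whole series.

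In dCD cells the histone H3K4 methyltransferases MLL3 and MLL4 are catalytically dead, and in MLL2dTAG cells the related enzyme MLL2 is fused to a degron, so that adding the compound dTAG-13 leads to its breakdown. The labels give dTAG-13 at 2 µM for all 18 libraries, WT and ESC included. For NPC it was given from day 1 of differentiation, and its start and duration in ESC are not given in the sources used here. No group without the compound enters these comparisons. Each genotype is a line of its own, so the edit and other differences between lines cannot be told apart. Nothing in the labels says whether replicates were separate cultures, so p-values measure the spread between these libraries, which may be technical.

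Secreted FGFs bind receptor tyrosine kinases of the FGFR family together with heparan sulfate, and the receptors pass the signal through adaptors, Ras and the ERK kinases. Active ERK raises transcription of the ETS factors Etv1, Etv4 and Etv5 and of inhibitors that feed back on the pathway, among them the Sprouty and Spred proteins and the ERK phosphatase Dusp6. In mouse ESC the main autocrine ligand is Fgf4, a target of Oct4 and Sox2, and its signal through FGFR1 and ERK is known for readying the cells to leave self-renewal.

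The total was 19430860 counts in the shallowest library and 46041277 in the deepest, and 3 counts, the floor used for a count of 0, equal 0.0652 to 0.154 CPM. Reads are not independent molecules, so this floor covers counting error only. Of gene counts between 1 and 10, 60.8% to 66.5% per library were even numbers, against 48.9% to 50.4% of counts in the highest range; the cause was not tested. With all counts halved, 0 of the directions and 8 of 241 calls and counts changed. The labelled cell types were checked against markers. Of 8 ESC markers, all 8 were lower in WT NPC than in WT ESC, with Pou5f1 at 1.01 ± 0.234 CPM (SD, n = 3) against 555 ± 63.9 CPM. Of 8 neural progenitor markers, 5 were higher and 2 were lower, with Pax6 at 38.9 ± 1.16 against 1.75 ± 0.613 CPM, Sox2 at 14.4 ± 0.383 against 311 ± 16.4 CPM, and Sox1 at 3.10 ± 0.240 against 3.05 ± 0.460 CPM. All 8 endoderm markers were also higher in WT NPC, with Gata6 at 127 ± 3.05 and Dab2 at 204 ± 4.15 CPM. The cultures labelled NPC therefore carried transcripts of markers beyond the neural lineage. In bulk samples, fewer cells of a type and less RNA per cell cannot be told apart. Transcripts of the targeted genes were present in all 6 groups, at mean levels of 183 CPM (WT NPC), 207 CPM (MLL2dTAG ESC) and 197 CPM (MLL2dTAG NPC) for Kmt2b, the gene of MLL2. Kmt2c, the gene of MLL3, was higher than WT in MLL2dTAG, at 275 to 286 against 177 to 219 CPM in ESC and 299.6 to 335 against 171 to 178 CPM in NPC, and was not called in dCD. Both edits act on proteins, and transcript levels are therefore no check of either edit.

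The promoter sequences of 5 members are given because the results turn on them. Fgf2, Spry2 and Dusp6 were higher than WT in both lines at both stages. So was Spry4, but no promoter of Spry4 was searched. Fgf4 and Etv5 had the highest levels per kilobase of exon in WT ESC and fell in differentiation. Each is the 250 bases before the annotated start, 5′ to 3′ along the gene, from RefSeq on GRCm38.p6, and 26 of the 35 members had an entry. Capitals mark the GC box, GGGCGG on either strand. CCGGAA, a longer form of the ETS core GGAA, and the octamer, searched as ATGCAAAT, were looked for on both strands as well.
Fgf2, chr3:37348403-37348652, plus strand: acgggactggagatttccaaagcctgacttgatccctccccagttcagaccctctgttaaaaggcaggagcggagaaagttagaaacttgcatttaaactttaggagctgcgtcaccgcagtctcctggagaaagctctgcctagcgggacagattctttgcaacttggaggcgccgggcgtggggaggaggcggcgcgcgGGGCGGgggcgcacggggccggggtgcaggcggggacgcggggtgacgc
Spry2, chr14:105896820-105897069, minus strand: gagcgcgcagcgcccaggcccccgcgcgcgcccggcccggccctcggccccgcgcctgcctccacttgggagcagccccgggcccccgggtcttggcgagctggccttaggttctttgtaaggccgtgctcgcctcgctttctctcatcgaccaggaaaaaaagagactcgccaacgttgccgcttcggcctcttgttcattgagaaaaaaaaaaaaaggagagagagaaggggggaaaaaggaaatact
Dusp6, chr10:99262981-99263230, plus strand: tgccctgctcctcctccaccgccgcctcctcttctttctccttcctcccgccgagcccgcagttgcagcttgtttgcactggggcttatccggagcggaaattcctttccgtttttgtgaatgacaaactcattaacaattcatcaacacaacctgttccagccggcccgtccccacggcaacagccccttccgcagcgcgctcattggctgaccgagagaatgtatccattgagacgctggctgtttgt
Fgf4, chr7:144861136-144861385, plus strand: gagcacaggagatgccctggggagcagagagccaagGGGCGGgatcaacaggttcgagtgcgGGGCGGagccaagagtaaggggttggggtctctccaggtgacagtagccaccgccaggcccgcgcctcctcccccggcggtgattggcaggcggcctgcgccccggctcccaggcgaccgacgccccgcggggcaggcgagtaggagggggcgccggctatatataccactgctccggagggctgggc
Etv5, chr16:22439571-22439820, minus strand: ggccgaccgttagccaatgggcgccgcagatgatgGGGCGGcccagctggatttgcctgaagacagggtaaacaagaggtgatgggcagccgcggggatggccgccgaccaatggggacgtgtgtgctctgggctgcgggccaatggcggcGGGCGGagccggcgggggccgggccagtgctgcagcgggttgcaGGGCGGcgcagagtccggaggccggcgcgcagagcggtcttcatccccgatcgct

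The Fgf2 window holds 1 GC box, the Fgf4 window 2, the Etv5 window 3, and those of Spry2 and Dusp6 none. A GC box is in 32.7% of all 32851 RefSeq promoter windows of this length, CCGGAA in 12.03% and the octamer in 1.60%. Neither CCGGAA nor the octamer is in the 5 windows, which says only that these letters are not there. The shorter GGAA, which is in the Spry2 and Dusp6 windows among others, was not searched. The windows are rich in the dinucleotide CG, which occurs 20 times at Fgf2, 23 at Spry2, 16 at Dusp6, 21 at Fgf4 and 27 at Etv5, against a median of 6 and an upper quartile of 16 over all windows. Among the 26 members searched, CCGGAA was found at Fgf5, Fgfr4 and 1 of 4 Fgf12 starts. A match is a description of the sequence and not of a bound factor.

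WT NPC were first compared with WT ESC, to see how the family was set before and after differentiation without either edit. The ligands Fgf4, Fgf17 and Fgf8 fell in NPC, as did Etv5, Spry4 and Etv4, and the genes that rose included Fgf9, Fgf18, Fgf11, Fgfr2 and Fgfr3. Of the 32 members tested, 29 were called at an adjusted p under 0.05 in edgeR's quasi-likelihood test, 15 higher and 14 lower. That test called 79.5% of all 20511 genes, 39.1% higher and 40.4% lower. The median change was 0.042 on the log2 scale over the members and -0.037 over all genes.

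Fgf4 went from 312, 309.9 and 312 CPM in the WT ESC libraries to 0.127, 0.16 and 0.112 CPM in WT NPC. The stages did not overlap, and the NPC level was 0.0426% of the ESC level. Fgf17, a member of the Fgf8 subfamily, stood at 16.9, 16.3 and 17.1 CPM in ESC and 0.0633, 0.186 and 0.251 CPM in NPC, the latter close to the floor. Fgf8 itself was at 2.5, 2.99 and 2.79 CPM in ESC, and its 3 NPC libraries held 0, 0.107 and 0 CPM. Fgf15, a member of the endocrine subfamily, fell from 28.6, 25.4 and 26.7 CPM to 5.48, 5.43 and 5.25 CPM (-2.32 ± 0.085 SE on the log2 scale, adjusted p = 1.4e-23). Fgf2, basic FGF, was a low transcript at both stages, with 3.57, 5.74 and 4.69 CPM in ESC and 1.11, 1.25 and 1.42 CPM in NPC.

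Other ligands rose. Fgf9 went from 0.106, 0.0332 and 0.068 CPM in ESC to 7.12, 6.98 and 6.98 CPM in NPC. Fgf18 rose from 0.958, 0.929 and 0.986 CPM to 5.79, 5.38 and 5.75 CPM (2.55 ± 0.20 SE, adjusted p = 3e-14). Neither gene had a library of one stage within the range of the other. Fgf20, of the Fgf9 subfamily, had 232 counts in WT NPC and 2 in WT ESC, a ratio of 86.6 with an exact 95% interval of 23.7 to 719 for the counts. Smaller changes were called for Fgf1, with 6.5, 6.57 and 5.85 CPM in ESC and 8.32, 8.55 and 8.04 CPM in NPC, and for Fgf10, with 10.5, 10.3 and 9.11 and 13.9, 13 and 13.3 CPM. Fgf1 and Fgf10 were thus expressed at both stages, Fgf10 being a ligand of the epithelial form of FGFR2. Fgf5, a marker of the primed epiblast, was at 7.72, 6.57 and 6.19 CPM in ESC and 7.56, 9.16 and 8.07 CPM in NPC. Its call was lost with upper-quartile scaling, and the 2 groups overlapped.

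Among the homologous factors, which stay inside the cell and bind sodium channels, Fgf11 rose from 11.2, 10.9 and 10.4 CPM to 31.1, 31.7 and 32.7 CPM (1.56 ± 0.067 SE, adjusted p = 1.1e-21). Fgf13 was at 4.95, 4.78 and 5.98 CPM in ESC and 6.01, 5.27 and 5.59 CPM in NPC, groups that overlapped and were not called different (0.094 ± 0.13 SE, adjusted p = 0.49). Fgf12 and Fgf14 were low at both stages, at most 1.01 and 1.15 CPM in any library.

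Among the receptors, Fgfr1 fell from 165, 178 and 172 CPM to 107, 105 and 107 CPM, while Fgfr2 rose from 26.1, 26.9 and 25.3 CPM to 114, 106 and 107 CPM. Fgfr3 rose from 6.65, 8.59 and 6.32 CPM to 36.3, 39.1 and 37.6 CPM (2.38 ± 0.088 SE, adjusted p = 1.5e-23). For each of these 3 genes the stages were fully apart. Fgfr4 was called lower, at 9.1, 11.3 and 9.69 CPM in ESC and 7.15, 7.8 and 5.06 CPM in NPC (-0.60 ± 0.12 SE). Per kilobase of exon, which allows levels of different genes to be compared, WT ESC held 17.4 CPM of Fgfr1, 2.83 of Fgfr4, 2.53 of Fgfr2 and 1.00 of Fgfr3. The ranges of Fgfr4 and Fgfr2 in that order overlapped (2.57 to 3.18 against 2.45 to 2.60). In WT NPC Fgfr1 at 10.8 and Fgfr2 at 10.5 CPM per kilobase had overlapping ranges as well, followed by Fgfr3 at 5.26 and Fgfr4 at 1.88.

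**Figure D1:**
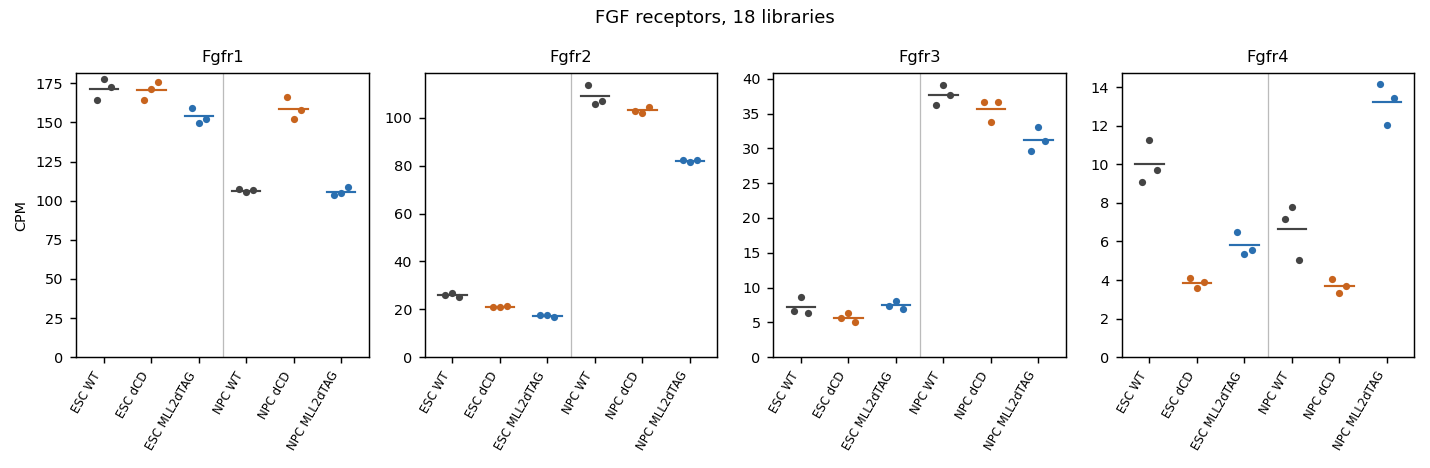
Levels of the 4 FGF receptors in CPM (linear axis from 0) in each of the 18 libraries; points are libraries, short lines are group means, and the vertical line divides ESC from NPC. In WT, Fgfr1 is lower and Fgfr2 and Fgfr3 are higher in all 3 NPC libraries than in all 3 ESC libraries, and Fgfr4 lies between 3.34 and 14.2 CPM throughout, lowest in dCD at each stage.

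All 9 feedback and target genes were called between the stages, 5 higher and 4 lower. Etv5 was the most abundant of them per kilobase in WT ESC, at 85.9 CPM per kilobase, second among all members to Fgf4 at 97.5. It fell from 349, 360.3 and 348 CPM to 17, 16 and 16.1 CPM (-4.43 ± 0.04 SE). Spry4, a Sprouty antagonist of receptor tyrosine kinases, fell from 37.2, 38.9 and 42.5 CPM to 2.15, 2.29 and 1.76 CPM (-4.26 ± 0.088 SE). Etv4 was lowered from 53.5, 59.98 and 57.4 CPM to 7.34, 7.06 and 8.27 CPM (-2.92 ± 0.06 SE), and Spry2 from 57.6, 58.9 and 60.2 CPM to 32.8, 32.2 and 33.6 CPM (-0.84 ± 0.042 SE). The programme did not fall as a whole. Etv1 rose from 18.4, 18.1 and 19 CPM to 57.5, 60.02 and 54.8 CPM (1.63 ± 0.055 SE). Dusp6 rose from 29.8, 28.2 and 29.9 CPM to 48.5, 44.7 and 47 CPM (0.67 ± 0.047 SE). Spry1 was at 34.6, 35 and 39.5 CPM in ESC and 50.3, 49.8 and 49.3 CPM in NPC (0.45 ± 0.054 SE). The 2 Spred genes had smaller rises, of 0.50 ± 0.04 SE for Spred1 and 0.11 ± 0.04 SE for Spred2, and the Spred2 call was lost with upper-quartile scaling (0.025). For the other 7 genes named here the adjusted p was at most 2.4e-09.

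In the wider pathway, a list of 15 heparan sulfate genes held synthesis enzymes and the sulfatases Sulf1 and Sulf2. In WT NPC 14 of the 15 were higher and 0 lower (median 1.64 against -0.037 over all genes). Hs3st1 was at 3.12 ± 0.15 SE and Hs6st2 at 3.04 ± 0.069 SE, both sulfotransferases. Of 17 co-receptors and FGF-binding proteins tested 13 were higher and 3 lower, led by Flrt3 (4.83 ± 0.066 SE) and Cdh2, N-cadherin (4.30 ± 0.063 SE), with Sdc4 (-1.47 ± 0.048 SE) and Gpc4 (-0.37 ± 0.062 SE) the furthest down. The adaptors and the ERK cascade moved both ways, with 7 of 21 higher and 11 lower. The exchange factor Sos2 (1.49 ± 0.045 SE) and Nf1 (0.91 ± 0.051 SE) were the highest and the adaptors Frs3 (-1.36 ± 0.10 SE) and Gab1 (-1.13 ± 0.032 SE) the lowest. Among 17 further feedback and ERK response genes 8 were higher, with Egr1 at 2.93 ± 0.057 SE and Fos at 2.74 ± 0.068 SE, and 6 were lower. Over all genes, 39.1% were called higher and 40.4% lower between these stages.

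The same members were then compared between the lines at the ESC stage. The question was which transcripts differed from WT in the dCD line and which in the MLL2dTAG line. In both edited lines the ERK feedback and target genes stood above WT: 7 of 9 were called higher and 1 lower in dCD, and 8 of 9 higher and 1 lower in MLL2dTAG. Spry4 was 2.79-fold above WT in dCD and 4.41-fold in MLL2dTAG, Dusp6 2.59-fold and 2.99-fold, and Spry2 2.09-fold and 2.34-fold. The receptors did not share this direction, with 3 of 4 called lower and 0 higher in each line. Over all 32 tested members, 19 were called in dCD (11 higher, 8 lower) and 26 in MLL2dTAG (14 higher, 12 lower). The background over all genes was 48.3% called in dCD, 25.7% higher and 22.6% lower, and 56.9% in MLL2dTAG, 28.7% higher and 28.2% lower. The median change of the 9 feedback genes was 0.79 in dCD and 1.23 in MLL2dTAG, against 0.023 and -0.0011 over all genes. Both comparisons use the same 3 WT libraries, so they are not independent of each other.

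**Figure D2:**
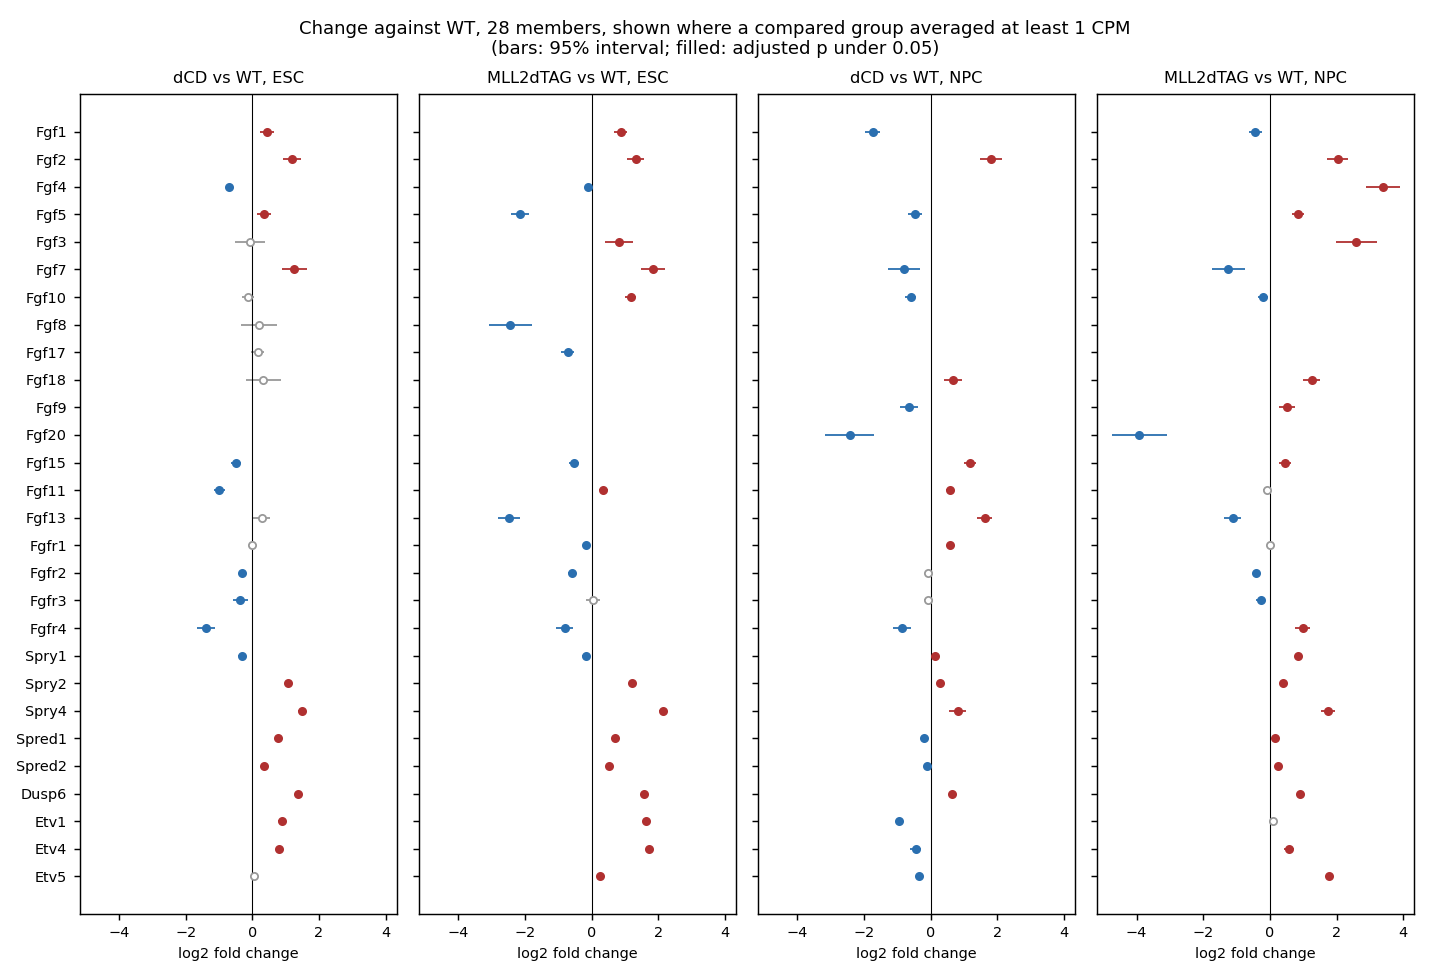
Log2 fold change against WT (x axis) of the members in the 4 genotype comparisons; bars are 95% intervals, filled points passed the test (red higher, blue lower), open grey points did not, and a member is left out of a panel where both compared groups averaged under 1 CPM. In the ESC panels Spry2, Spry4, Spred1, Spred2, Dusp6, Etv1 and Etv4 lie right of 0, from 0.34 to 1.48 in dCD and from 0.52 to 2.14 in MLL2dTAG.

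Spry4 was at 37.2, 38.9 and 42.5 CPM in WT, 110.4, 109.5 and 112 CPM in dCD and 175, 172 and 178 CPM in MLL2dTAG. Spry2 was at 57.6, 58.9 and 60.2 CPM in WT, 121, 124 and 125 CPM in dCD and 138, 137 and 139.6 CPM in MLL2dTAG. For both, the 3 groups were fully separated, in the order WT, dCD, MLL2dTAG. The phosphatase transcript Dusp6 followed the same order, with 29.8, 28.2 and 29.9 CPM in WT, 74.6, 74.9 and 77.8 CPM in dCD and 88.6, 87.2 and 86.2 CPM in MLL2dTAG. The log2 changes in dCD and MLL2dTAG were 1.48 ± 0.053 and 2.14 ± 0.052 SE for Spry4, 1.06 ± 0.039 and 1.23 ± 0.039 SE for Spry2, and 1.37 ± 0.047 and 1.58 ± 0.045 SE for Dusp6. The largest adjusted p of these 6 tests was 2.2e-21.

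The ETS factors split. Etv4 was at 53.5, 59.98 and 57.4 CPM in WT, 96.3, 99 and 101 CPM in dCD and 191, 189 and 192 CPM in MLL2dTAG, again without overlap (0.79 ± 0.046 and 1.74 ± 0.045 SE). Etv1 was at 18.4, 18.1 and 19 CPM in WT, 34.8, 34.3 and 34.1 CPM in dCD and 56.1, 59.1 and 59 CPM in MLL2dTAG (0.89 ± 0.059 and 1.65 ± 0.055 SE). Etv5 changed least of the 3. It was at 349, 360.3 and 348 CPM in WT, 370.1, 361 and 372 CPM in dCD and 423, 418 and 424 CPM in MLL2dTAG, and the dCD libraries were not called different from WT (0.061 ± 0.032 SE, adjusted p = 0.12), although DESeq2 called that small rise (0.077, adjusted p = 0.0099). In MLL2dTAG the rise of Etv5 was called, at 0.26 ± 0.032 SE.

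Spred1 and Spred2, inhibitors of Ras and Raf, rose in both lines, by 0.78 ± 0.04 and 0.34 ± 0.04 SE in dCD and by 0.72 ± 0.04 and 0.52 ± 0.039 SE in MLL2dTAG. Spry1 was the exception among the 9. It was at 34.6, 35 and 39.5 CPM in WT, 28.6, 27.5 and 31.9 CPM in dCD and 32, 32.4 and 32.7 CPM in MLL2dTAG, lower than WT by the test in dCD (-0.31 ± 0.058 SE, adjusted p = 3e-05) and in MLL2dTAG (-0.17 ± 0.056 SE, adjusted p = 0.0092). The MLL2dTAG call was lost without WT replicate 3, at -0.10. Beside the feedback genes, 6 of 8 neural progenitor markers were higher and 1 lower in dCD ESC, and 4 were higher and 3 lower in MLL2dTAG ESC. Their summed level was 368 to 393 CPM in WT, 270.1 to 306 CPM in dCD and 344 to 361 CPM in MLL2dTAG. Of 9 tested mesoderm and mesenchyme markers, 8 were higher and 1 lower in dCD, and 7 higher and 2 lower in MLL2dTAG. The part of either marker list in the feedback gene levels was not tested.

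**Figure D3:**
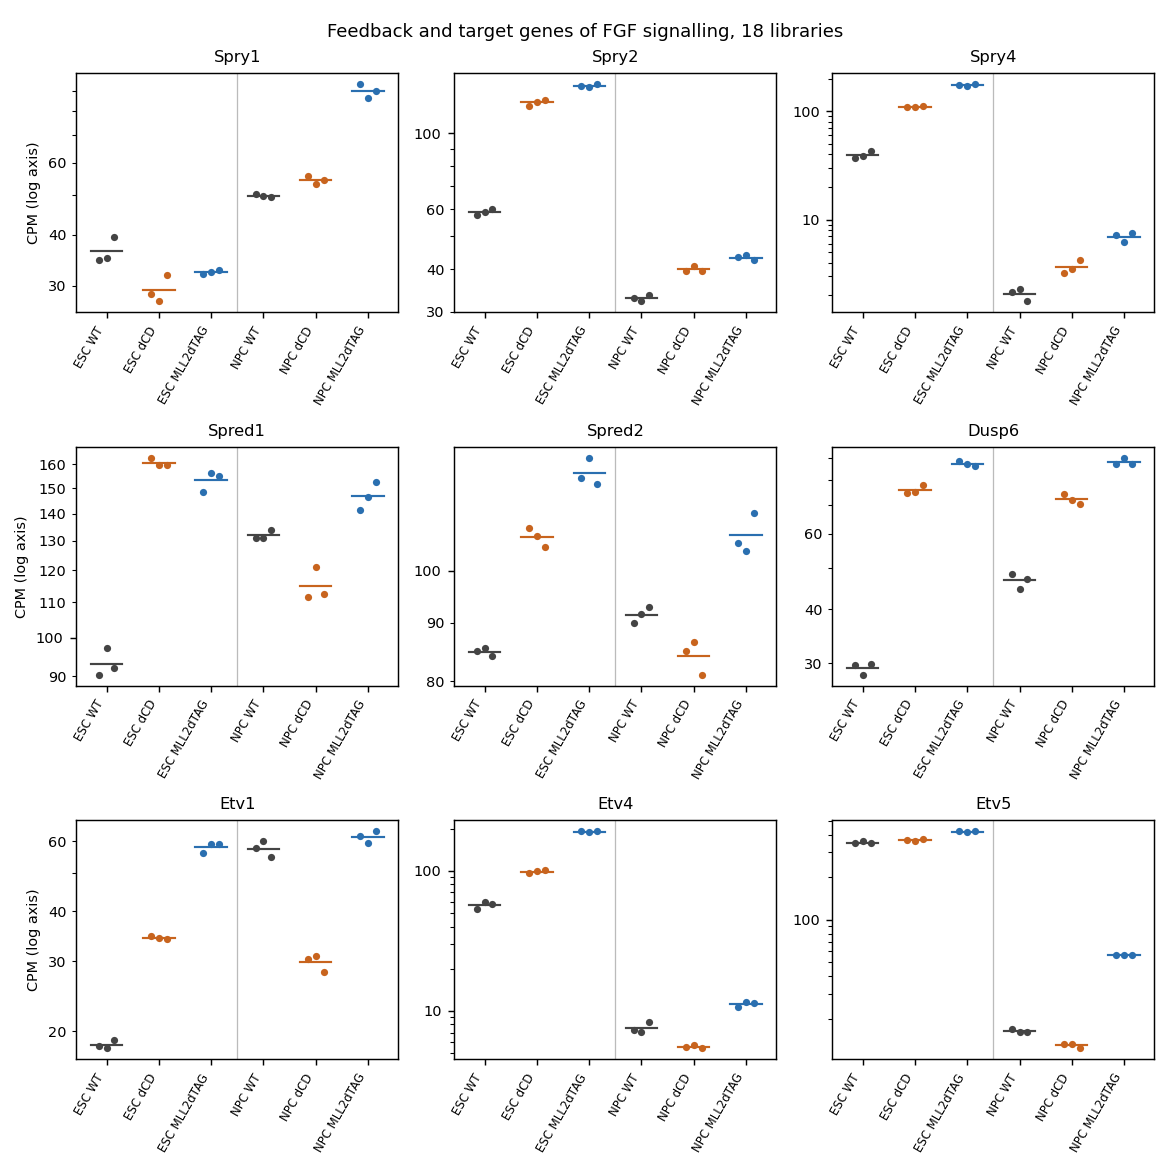
Levels of the 9 feedback and target genes in CPM (log axis, scaled per panel) in each library; points are libraries, short lines are group means, grey is WT, orange dCD and blue MLL2dTAG, and the vertical line divides ESC from NPC. In ESC the dCD and MLL2dTAG points of Spry2, Spry4 and Dusp6 lie above every WT point, and in NPC Etv5 and Spry1 are highest in MLL2dTAG, at 56.1 to 56.4 and 86.3 to 93.3 CPM.

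Among ligands, Fgf4 was lower in dCD ESC and Fgf2 was higher in both lines. Fgf4 was at 312, 309.9 and 312 CPM in WT, 186, 184 and 199 CPM in dCD and 292, 293 and 284 CPM in MLL2dTAG. The dCD libraries lay far under the others (-0.72 ± 0.039 SE, adjusted p = 4.9e-17). The change in MLL2dTAG was small (-0.10 ± 0.038 SE, adjusted p = 0.019), and its call was lost without MLL2dTAG replicate 3 and with no filter on low counts (-0.045). Fgf4, the member with the highest level per kilobase in WT ESC, was thus higher in neither line. Fgf2 was at 3.57, 5.74 and 4.69 CPM in WT, 11, 12.3 and 9.62 CPM in dCD and 11, 12.2 and 12.8 CPM in MLL2dTAG, with both edited lines fully above WT (1.20 ± 0.13 and 1.33 ± 0.13 SE). The transcript lies opposite the antisense gene Nudt6, which had a mean of 0.351 to 0.947 CPM over the 6 groups, and Fgf2 also overlaps the gene model Gm43439 on the same strand. How reads shared by overlapping genes were assigned, and whether counting used strand, is not given in the sources used here.

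Fgf7, keratinocyte growth factor, was at 3.62, 1.59 and 2.24 CPM in WT, 5.55, 6.79 and 4.81 CPM in dCD and 8.32, 8.26 and 9.29 CPM in MLL2dTAG (1.26 ± 0.19 and 1.86 ± 0.18 SE). Fgf10 was at 10.5, 10.3 and 9.11 CPM in WT, 9.52, 9.57 and 8.2 CPM in dCD and 23.1, 21.5 and 22.8 CPM in MLL2dTAG, which was a rise in MLL2dTAG (1.18 ± 0.081 SE) but not a called change in dCD (-0.13 ± 0.093 SE, adjusted p = 0.27). Fgf1 was at 6.5, 6.57 and 5.85 CPM in WT, 8.67, 8.12 and 8.76 CPM in dCD and 11.9, 10.6 and 12.1 CPM in MLL2dTAG, in that order without overlap. The mesoderm and mesenchyme markers counted above had a summed level of 261 to 331 CPM in WT, 428 to 486 CPM in dCD and 480 to 514 CPM in MLL2dTAG. Their part in the levels of Fgf7, Fgf10 and Fgf1 was not tested.

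Fgf5 and the Fgf8 subfamily separated the 2 edited lines. Fgf5 was at 7.72, 6.57 and 6.19 CPM in WT, 8.79, 8.41 and 8.61 CPM in dCD and 1.54, 1.61 and 1.41 CPM in MLL2dTAG, with every MLL2dTAG library far under WT (-2.15 ± 0.14 SE, adjusted p = 1.3e-15). In dCD it was slightly higher (0.35 ± 0.11 SE, adjusted p = 0.0077), a call lost without WT replicate 3. Fgf8 was at 2.5, 2.99 and 2.79 CPM in WT, 3.8, 2.98 and 2.83 CPM in dCD and 0.476, 0.466 and 0.574 CPM in MLL2dTAG, also low in all 3 MLL2dTAG libraries (-2.44 ± 0.33 SE). Fgf17 was at 16.9, 16.3 and 17.1 CPM in WT, 19, 18.6 and 18.8 CPM in dCD and 9.93, 10.2 and 10.4 CPM in MLL2dTAG (-0.72 ± 0.10 SE). In dCD, Fgf8 (0.21 ± 0.28 SE, adjusted p = 0.57) and Fgf17 (0.17 ± 0.10 SE, adjusted p = 0.17) were not called different from WT. Markers of the primed epiblast were mostly lower in MLL2dTAG too, and mostly higher in dCD. Of 6 such markers 5 were higher and 0 lower in dCD, at a sum of 733 to 753 CPM against 571 to 584 CPM in WT, and 0 were higher and 4 lower in MLL2dTAG, at 382 to 390 CPM. Their part in the Fgf5 and Fgf8 values was not tested.

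Fgf15 was lower in both lines, at 28.6, 25.4 and 26.7 CPM in WT, 19.7, 18.4 and 19.5 CPM in dCD and 19.5, 18.8 and 17.6 CPM in MLL2dTAG (-0.48 ± 0.076 and -0.53 ± 0.074 SE). The homologous factors differed between the edited lines. Fgf11 was at 11.2, 10.9 and 10.4 CPM in WT, 5.42, 6.01 and 4.92 CPM in dCD and 13.4, 14.4 and 13.7 CPM in MLL2dTAG, down in dCD (-0.99 ± 0.089 SE) and up in MLL2dTAG (0.36 ± 0.073 SE). Fgf13 was at 4.95, 4.78 and 5.98 CPM in WT, 6.15, 6.96 and 6.08 CPM in dCD and 0.953, 1.06 and 0.835 CPM in MLL2dTAG, low in every MLL2dTAG library (-2.48 ± 0.17 SE, adjusted p = 7.1e-15).

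The receptor with the largest change was Fgfr4, at 9.1, 11.3 and 9.69 CPM in WT, 4.1, 3.56 and 3.88 CPM in dCD and 6.49, 5.37 and 5.54 CPM in MLL2dTAG. Both edited lines lay under WT (-1.39 ± 0.14 and -0.81 ± 0.13 SE), and dCD lay under MLL2dTAG. Fgfr2 was at 26.1, 26.9 and 25.3 CPM in WT, 21.1, 21 and 21.2 CPM in dCD and 17.7, 17.6 and 16.7 CPM in MLL2dTAG (-0.30 ± 0.054 and -0.59 ± 0.053 SE), with the gene Ctbp2 overlapping it on the same strand. Fgfr1, the main receptor per kilobase, was at 165, 178 and 172 CPM in WT, 164, 172 and 176 CPM in dCD and 159.5, 149.8 and 153 CPM in MLL2dTAG. It was not called in dCD (-0.0091 ± 0.039 SE, adjusted p = 0.88, 95% interval -0.086 to 0.068) and only slightly lower in MLL2dTAG (-0.16 ± 0.039 SE). Fgfr3 was at 6.65, 8.59 and 6.32 CPM in WT, 5.63, 6.34 and 5.03 CPM in dCD and 7.33, 8.13 and 6.87 CPM in MLL2dTAG. Its decrease in dCD (-0.36 ± 0.12 SE, adjusted p = 0.011) was lost without WT replicate 2 (-0.19) or dCD replicate 3 (-0.27), and MLL2dTAG was not called (0.034 ± 0.11 SE, adjusted p = 0.81).

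Further genes of the pathway gave a mixed picture in ESC. Over all genes, 25.7% were called higher and 22.6% lower in dCD ESC, and 28.7% and 28.2% in MLL2dTAG ESC. Of the 17 further feedback and ERK response genes 10 were higher and 1 lower in dCD, and 6 higher and 1 lower in MLL2dTAG. The furthest up in both lines were Myc (2.06 ± 0.071 and 2.43 ± 0.069 SE) and Spred3 (1.24 ± 0.10 and 1.28 ± 0.097 SE). The lowest called genes were the repressor Cic in dCD (-0.23 ± 0.049 SE) and the FGF antagonist Il17rd in MLL2dTAG (-0.16 ± 0.047 SE). Adaptors and the ERK cascade split evenly, with 7 of 21 higher and 9 lower in dCD and 9 higher and 9 lower in MLL2dTAG. Hras (0.41 ± 0.063 and 0.40 ± 0.062 SE) and Map2k2 (0.37 ± 0.072 and 0.51 ± 0.07 SE) led the rises. Frs3 (-0.78 ± 0.10 SE) and Braf (-0.46 ± 0.044 SE) led the falls in dCD, and Sos2 (-0.67 ± 0.052 SE) and Mapk3, which encodes ERK1 (-0.50 ± 0.04 SE), those in MLL2dTAG. Of the 15 heparan sulfate genes 10 were higher and 0 lower in dCD, with Hs6st2 at 0.98 ± 0.084 and Sulf1 at 0.74 ± 0.036 SE, and 11 higher and 0 lower in MLL2dTAG, with Sulf2 at 0.57 ± 0.032 and Hs6st1 at 0.50 ± 0.041 SE. Of the 17 co-receptors and binding proteins 10 were higher and 5 lower in dCD, with Cdh2 at 1.88 ± 0.073 and Sdc4 at -0.85 ± 0.047 SE the extremes. In MLL2dTAG 9 were higher and 5 lower, from Flrt2 at 1.58 ± 0.072 to Nrcam at -1.74 ± 0.13 SE.

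At the NPC stage the same question was asked against WT NPC. Of the 9 feedback genes, dCD NPC had 4 higher and 5 lower than WT NPC, and MLL2dTAG NPC had 8 higher and 0 lower. Dusp6, Spry4 and Spry2 were above WT in both lines, while Etv1, Etv4 and Etv5 were lower in dCD, and Etv5 and Spry1 were far higher in MLL2dTAG. Over all members, 22 of 32 were called in dCD NPC, 10 higher and 12 lower, and 26 in MLL2dTAG NPC, 17 higher and 9 lower. All genes gave 53.5% called in dCD (26.7% higher, 26.8% lower) and 61.7% in MLL2dTAG (33.3% higher, 28.4% lower). The median change of the members was -0.023 in dCD and 0.42 in MLL2dTAG, against -0.017 and 0.028 over all genes.

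Dusp6 was at 48.5, 44.7 and 47 CPM in WT, 74.1, 72 and 70.3 CPM in dCD and 87.2, 90.1 and 87.1 CPM in MLL2dTAG (0.63 ± 0.042 and 0.92 ± 0.041 SE). Spry4 was at 2.15, 2.29 and 1.76 CPM in WT, 3.22, 3.48 and 4.19 CPM in dCD and 7.18, 6.25 and 7.46 CPM in MLL2dTAG (0.81 ± 0.13 and 1.74 ± 0.11 SE). Spry2 was at 32.8, 32.2 and 33.6 CPM in WT, 39.4, 41 and 39.5 CPM in dCD and 43.3, 44 and 42.4 CPM in MLL2dTAG (0.28 ± 0.043 and 0.40 ± 0.042 SE). Every library of the edited lines lay above every WT library for these 3 genes.

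Etv5 was at 17, 16 and 16.1 CPM in WT, 13.2, 13.2 and 12.3 CPM in dCD and 56.1, 56.1 and 56.4 CPM in MLL2dTAG, which placed dCD under and MLL2dTAG far over WT (-0.34 ± 0.05 and 1.78 ± 0.042 SE, adjusted p = 1.8e-28 for the latter). Etv4 was at 7.34, 7.06 and 8.27 CPM in WT, 5.49, 5.66 and 5.4 CPM in dCD and 10.7, 11.6 and 11.3 CPM in MLL2dTAG (-0.45 ± 0.082 and 0.57 ± 0.07 SE). Etv1 was at 57.5, 60.02 and 54.8 CPM in WT, 30.5, 30.9 and 28.2 CPM in dCD and 61.6, 59.4 and 63.5 CPM in MLL2dTAG, low in dCD (-0.95 ± 0.05 SE) and not called in MLL2dTAG (0.098 ± 0.047 SE, adjusted p = 0.067). Thus all 3 ETS factors of the group were below WT in dCD NPC, while Dusp6, Spry4 and Spry2 were above it. The cause was not tested. Spry1 was at 50.3, 49.8 and 49.3 CPM in WT, 55.5, 53.2 and 54.3 CPM in dCD and 93.3, 86.3 and 89.9 CPM in MLL2dTAG, a clear rise in MLL2dTAG (0.85 ± 0.049 SE) and a marginal one in dCD (0.13 ± 0.05 SE, adjusted p = 0.033), lost without any 1 of 5 libraries. Spred1 changed by -0.20 ± 0.039 and Spred2 by -0.12 ± 0.039 SE in dCD. In MLL2dTAG they changed by 0.15 ± 0.038 and 0.23 ± 0.038 SE, the first of which was not called with upper-quartile scaling (0.061).

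Fgf4, the ligand typical of ESC, was higher in MLL2dTAG NPC than in the other NPC groups. It was at 0.127, 0.16 and 0.112 CPM in WT, 0.184, 0.11 and 0.0587 CPM in dCD and 1.78, 1.26 and 1.33 CPM in MLL2dTAG, in the edited MLL2dTAG line without overlap with WT or dCD (3.39 ± 0.26 SE, adjusted p = 1.3e-13). These levels rest on 14 counts in WT, 12 in dCD and 168 in MLL2dTAG. The MLL2dTAG level was 0.503% of the level in MLL2dTAG ESC, against 0.0426% in WT and 0.0621% in dCD. Fgf3, the neighbour of Fgf4, had 0.127, 0.426 and 0.279 CPM in WT, 0.307, 0.331 and 0.733 CPM in dCD and 1.51, 2.14 and 1.49 CPM in MLL2dTAG, highest in MLL2dTAG (2.59 ± 0.31 SE). ESC markers were raised in the same libraries. All 8 were called higher in MLL2dTAG NPC than in WT NPC, at a sum of 179.9 to 185 CPM against 32.1 to 33.4 CPM in WT NPC, 43.7 to 44.2 CPM in dCD NPC and 3068 to 3945 CPM in the ESC groups. Pou5f1 kept 4.34% of its ESC level in MLL2dTAG, against 0.182% in WT. The part of these transcripts in the levels of Fgf4, Fgf3, Etv5, Spry4 and Etv4 was not tested.

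**Figure D4:**
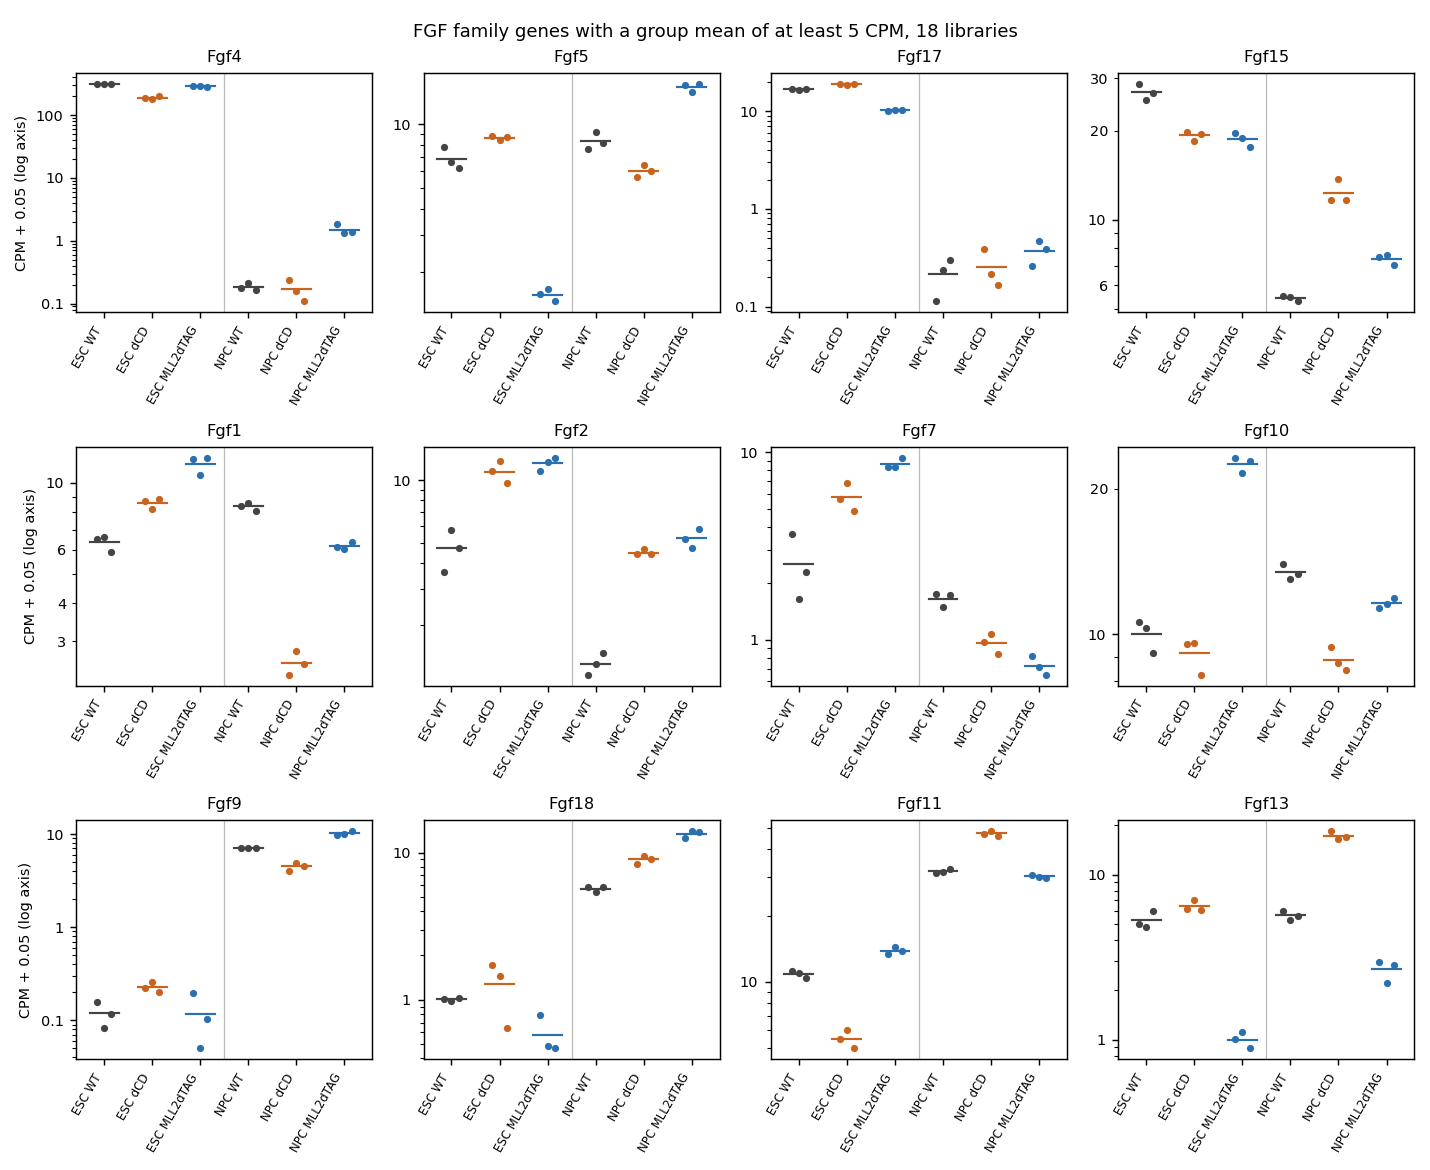
Levels in CPM plus 0.05 (log axis, scaled per panel) of the 12 FGF family genes with a group mean of at least 5 CPM, in each library; points are libraries, short lines are group means, grey is WT, orange dCD and blue MLL2dTAG, and the vertical line divides ESC from NPC. In WT, Fgf4 and Fgf17 have the largest log2 drops of the 12 from ESC to NPC, Fgf9 and Fgf18 rise, and Fgf5 in MLL2dTAG is the lowest ESC group and the highest NPC group.

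Fgf2 was higher in both lines in NPC as well, at 1.11, 1.25 and 1.42 CPM in WT, 4.36, 4.61 and 4.34 CPM in dCD and 5.19, 4.68 and 5.77 CPM in MLL2dTAG, without overlap with WT (1.81 ± 0.17 and 2.03 ± 0.16 SE). Fgf5 was at 7.56, 9.16 and 8.07 CPM in WT, 5.61, 6.35 and 5.98 CPM in dCD and 15.2, 14.1 and 15.4 CPM in MLL2dTAG, under WT in dCD (-0.47 ± 0.10 SE) and over it in MLL2dTAG (0.85 ± 0.093 SE). In MLL2dTAG its level in NPC was 981% of that in ESC, against 121% in WT and 69.5% in dCD. Fgf15 was at 5.48, 5.43 and 5.25 CPM in WT, 11.6, 13.7 and 11.6 CPM in dCD and 7.44, 7.57 and 6.99 CPM in MLL2dTAG, higher in both lines and most in dCD (1.19 ± 0.09 and 0.45 ± 0.095 SE).

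Ligands higher in WT NPC than in WT ESC moved in different directions. Fgf18 was at 5.79, 5.38 and 5.75 CPM in WT, 8.37, 9.49 and 9.03 CPM in dCD and 12.5, 13.9 and 13.7 CPM in MLL2dTAG, in that order without overlap (0.67 ± 0.13 and 1.25 ± 0.13 SE). Fgf9 was at 7.12, 6.98 and 6.98 CPM in WT, 3.96, 4.83 and 4.55 CPM in dCD and 9.64, 9.98 and 10.7 CPM in MLL2dTAG, below WT in dCD and above it in MLL2dTAG (-0.66 ± 0.13 and 0.52 ± 0.12 SE). Its relative Fgf20, with 2.47, 2.0 and 2.21 CPM in WT, 0.368, 0.414 and 0.44 CPM in dCD and 0.0297, 0.177 and 0.209 CPM in MLL2dTAG, was lower in both lines (-2.43 ± 0.37 and -3.92 ± 0.43 SE), at levels where MLL2dTAG was close to the floor. Endoderm markers differed between the same groups, with a sum of 435 to 449 CPM in WT NPC, 310 to 317 CPM in dCD NPC and 841 to 865 CPM in MLL2dTAG NPC. Of these 8 markers 6 were lower and 0 higher in dCD, and 7 higher and 1 lower in MLL2dTAG. Their part in the ligand levels was not tested.

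Fgf1 was at 8.32, 8.55 and 8.04 CPM in WT, 2.27, 2.73 and 2.46 CPM in dCD and 6.08, 6.01 and 6.34 CPM in MLL2dTAG, lowest in dCD (-1.73 ± 0.11 SE, adjusted p = 2.3e-15) and moderately lower in MLL2dTAG (-0.44 ± 0.098 SE). Fgf10 was at 13.9, 13 and 13.3 CPM in WT, 9.36, 8.69 and 8.39 CPM in dCD and 11.3, 11.5 and 11.8 CPM in MLL2dTAG (-0.60 ± 0.082 and -0.21 ± 0.079 SE), the second call being lost without WT replicate 1 or MLL2dTAG replicate 1. Fgf7 was at 1.71, 1.44 and 1.68 CPM in WT, 0.92, 1.02 and 0.792 CPM in dCD and 0.771, 0.662 and 0.60 CPM in MLL2dTAG, also under WT in both lines (-0.81 ± 0.24 and -1.24 ± 0.25 SE). The mesoderm and mesenchyme markers summed to 563 to 582 CPM in WT NPC, 741 to 820 CPM in dCD NPC and 1043 to 1056 CPM in MLL2dTAG NPC. Of the 9 tested, 5 were higher and 2 lower in dCD NPC, and 4 higher and 3 lower in MLL2dTAG NPC. Their part in the NPC levels of these 3 ligands was not tested. Of the homologous factors, Fgf13 was at 6.01, 5.27 and 5.59 CPM in WT, 18.3, 16.4 and 17 CPM in dCD and 2.91, 2.14 and 2.79 CPM in MLL2dTAG. It was high in every dCD library (1.62 ± 0.11 SE) and low in every MLL2dTAG library (-1.12 ± 0.13 SE). Fgf11 was at 31.1, 31.7 and 32.7 CPM in WT, 47.1, 48.4 and 46.3 CPM in dCD and 30.7, 29.9 and 29.7 CPM in MLL2dTAG, higher in dCD (0.57 ± 0.055 SE) and not called in MLL2dTAG (-0.082 ± 0.056 SE, adjusted p = 0.21), though it was called lower with upper-quartile scaling (-0.17) and under 2 other settings. Neural progenitor markers were higher in dCD NPC, 7 of 8 with a sum of 344 to 381 CPM against 164 to 167 CPM in WT NPC. In MLL2dTAG NPC, 5 of the 8 were higher and 1 was lower, with a sum of 229 to 233 CPM. Their part in the Fgf13 and Fgf11 values of either line was not tested.

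Of the receptors in NPC, Fgfr4 was at 7.15, 7.8 and 5.06 CPM in WT, 4.05, 3.34 and 3.67 CPM in dCD and 14.2, 12.1 and 13.4 CPM in MLL2dTAG, lower in dCD (-0.86 ± 0.14 SE) and higher in MLL2dTAG (0.98 ± 0.12 SE, adjusted p = 4e-09), and no 2 groups overlapped. Fgfr1 was at 107, 105 and 107 CPM in WT, 167, 152 and 158 CPM in dCD and 104, 105 and 109 CPM in MLL2dTAG, higher in dCD (0.58 ± 0.039 SE) and not called in MLL2dTAG (-0.0076 ± 0.04 SE, adjusted p = 0.89). Fgfr2 was at 114, 106 and 107 CPM in WT, 103, 102 and 104 CPM in dCD and 82.5, 81.4 and 82.6 CPM in MLL2dTAG, lower in MLL2dTAG (-0.41 ± 0.039 SE) and not called in dCD (-0.077 ± 0.039 SE, adjusted p = 0.092). Fgfr3 was at 36.3, 39.1 and 37.6 CPM in WT, 36.7, 33.7 and 36.7 CPM in dCD and 29.6, 33.1 and 31.1 CPM in MLL2dTAG, with the same pattern (-0.27 ± 0.07 SE in MLL2dTAG, -0.078 ± 0.07 SE and adjusted p = 0.36 in dCD).

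In the wider pathway, 14 of 17 further feedback and ERK response genes were higher and 0 lower in dCD NPC, with Junb at 1.56 ± 0.11 and Myc at 1.27 ± 0.068 SE. In MLL2dTAG NPC 9 were higher and 3 lower. There Lif, the self-renewal cytokine, was at 1.56 ± 0.072 and Myc at 1.15 ± 0.068 SE, and the immediate early genes Egr1 and Fos were lower, at -0.55 ± 0.046 and -0.43 ± 0.052 SE. Over all genes, 26.7% were called higher and 26.8% lower in dCD NPC, and 33.3% and 28.4% in MLL2dTAG NPC. Of the co-receptors 9 of 17 were higher and 7 lower in each line. In dCD the glypican Gpc4 (2.81 ± 0.054 SE) and the syndecan Sdc3 (1.58 ± 0.07 SE) were furthest up, and Gpc3 (-0.74 ± 0.036 SE) and Fgfbp3 (-0.59 ± 0.11 SE) furthest down. In MLL2dTAG the leading gene was Klb, the β-Klotho co-receptor of endocrine FGFs, which stood at 37.1 to 38.4 CPM against 5.27 to 5.67 CPM in WT NPC and 3.37 to 4.75 CPM in dCD NPC (2.80 ± 0.093 SE), followed by Gpc4 (1.14 ± 0.056 SE). The lowest were Flrt1 (-2.05 ± 0.08 SE) and Gpc3 (-0.52 ± 0.036 SE). Klb and Fgfr4, which together form a receptor for Fgf15, were thus both at their highest in MLL2dTAG NPC. Of heparan sulfate genes 9 of 15 were higher and 2 lower in dCD, and 10 higher and 4 lower in MLL2dTAG, with Hs3st1 the furthest up in each (1.16 ± 0.088 and 1.88 ± 0.085 SE). Of the adaptors and ERK cascade 6 of 21 were higher and 6 lower in dCD, and 12 higher and 5 lower in MLL2dTAG, with Hras (0.74 ± 0.063 and 0.70 ± 0.062 SE) and the phosphatase Ptpn11 (0.36 ± 0.032 and 0.43 ± 0.032 SE) furthest up in both.

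Fgf3, Fgf4 and Fgf15 lie side by side on chromosome 7, between Ano1 and Ccnd1 in the RefSeq gene order. Their called neighbours were all higher in ESC of both edited lines, and went both ways in NPC of these lines and between the WT stages. Ano1, a chloride channel, rose in WT NPC (6.26 ± 0.092 SE) as Fgf4 fell, and was lower in NPC of both edited lines (-1.91 ± 0.057 and -2.82 ± 0.06 SE). Ccnd1, cyclin D1, which is also a target of ERK, was higher in ESC of both lines (0.82 ± 0.042 and 0.68 ± 0.042 SE) and in dCD NPC (0.75 ± 0.042 SE). Of the 7 neighbours tested 5 were higher and 0 lower in dCD ESC, and 7 higher in MLL2dTAG ESC. The share of all genes called higher was 25.7% in dCD ESC and 28.7% in MLL2dTAG ESC. In NPC 4 were higher and 1 lower in dCD, and 3 higher and 1 lower in MLL2dTAG. There 26.7% and 33.3% of all genes were called higher, and 26.8% and 28.4% lower.

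MLL2dTAG was also compared directly with dCD, which asks where the 2 edited lines part. This contrast takes no WT mean, but the WT libraries stayed in the fit and entered its estimates of spread and scaling. Of the feedback genes, 8 of 9 were called higher in MLL2dTAG in ESC with 0 lower, and 9 of 9 in NPC. In ESC the Spry1 call (0.14 ± 0.058 SE, adjusted p = 0.044) was lost under 4 other settings, the fit of only the groups compared among them, and without any 1 of 5 libraries (dCD replicates 1 and 2, MLL2dTAG replicates 1, 2 and 3). Spred1, not called in ESC (-0.068 ± 0.039 SE), was called lower in MLL2dTAG with upper-quartile scaling (-0.12) and with only the groups compared (-0.082). Of all 32 members 26 were called in ESC (16 higher, 10 lower, against 47.2% of all genes called, 23.4% higher and 23.7% lower). In NPC 26 were called too (17 higher, 9 lower, against 55.9%, with 31.6% higher and 24.3% lower). In ESC the feedback gene with the largest difference was Etv4 (0.95 ± 0.043 SE), followed by Etv1 (0.76 ± 0.051 SE) and Spry4 (0.66 ± 0.048 SE). The differences of Spry2 (0.16 ± 0.037 SE), Dusp6 (0.20 ± 0.041 SE) and Etv5 (0.20 ± 0.032 SE) were small but called. In NPC the largest were Etv5 (2.12 ± 0.043 SE), Etv1 (1.04 ± 0.049 SE) and Etv4 (1.03 ± 0.075 SE), and the smallest was Spry2 (0.11 ± 0.041 SE), whose call was lost under 4 other settings, again including the fit of only the groups compared (0.056), and without any 1 of 3 libraries.

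Ligands and receptors differed in both directions. In ESC, MLL2dTAG was below dCD for Fgf13 (-2.76 ± 0.17 SE) and Fgf5 (-2.50 ± 0.13 SE). It was above dCD for Fgf11 (1.35 ± 0.083 SE), Fgf10 (1.31 ± 0.083 SE) and Fgf4 (0.61 ± 0.039 SE). Fgf2 was called different at neither stage (0.14 ± 0.12 SE, 95% interval -0.092 to 0.37, in ESC and 0.23 ± 0.13 SE, 95% interval -0.033 to 0.49, in NPC). In NPC the same line was below dCD for Fgf13 (-2.73 ± 0.12 SE), Fgf15 (-0.74 ± 0.084 SE) and Fgf11 (-0.65 ± 0.055 SE). It was above dCD for Fgf5 (1.32 ± 0.097 SE), Fgf1 (1.30 ± 0.12 SE) and Fgf9 (1.18 ± 0.13 SE). Fgfr4 was higher in MLL2dTAG at both stages (0.58 ± 0.15 SE in ESC, 1.84 ± 0.13 SE in NPC), and Fgfr1 and Fgfr2 were lower at both (-0.15 ± 0.039 and -0.29 ± 0.055 SE in ESC, -0.58 ± 0.039 and -0.33 ± 0.039 SE in NPC).

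Whether the change of a line against WT differed between the stages was tested as an interaction, the change in NPC minus that in ESC. For the feedback genes the change was smaller or more negative in NPC for 8 of 9 in dCD, and for 7 of 9 in MLL2dTAG. Spry1 in dCD, and Spry1 and Etv5 in MLL2dTAG, were the exceptions in the other direction. The interaction of Etv1 was -1.84 ± 0.077 SE in dCD and -1.55 ± 0.073 SE in MLL2dTAG, from libraries in which it stood above WT in ESC of both lines. Of all 32 members 22 were called for dCD (8 positive, 14 negative, against 42.9% of all genes, 20% positive and 22.9% negative). For MLL2dTAG 25 were called (13 positive, 12 negative, against 49%, 26.4% positive and 22.6% negative). Fgf5 in MLL2dTAG reversed direction between the stages (3.0 ± 0.17 SE, adjusted p = 4.1e-17). Fgf7 did so in both lines (-2.07 in dCD, -3.10 ± 0.31 SE in MLL2dTAG), as did Fgf1 (-2.17 ± 0.16 SE in dCD, -1.31 ± 0.14 SE in MLL2dTAG). Fgf15 was lower in ESC and higher in NPC in both lines (1.67 in dCD). Other members that changed sign included Etv1, Etv4 and Fgf11 in dCD, and Fgfr4, Fgf18 and Fgf10 in MLL2dTAG. Fgf18 was low in ESC, at 0.733, 0.435 and 0.418 CPM in MLL2dTAG against 0.958, 0.929 and 0.986 CPM in WT. Its ESC call (-0.90 ± 0.30 SE, adjusted p = 0.012) was lost without MLL2dTAG ESC replicate 3 (-0.74).

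**Figure D5:**
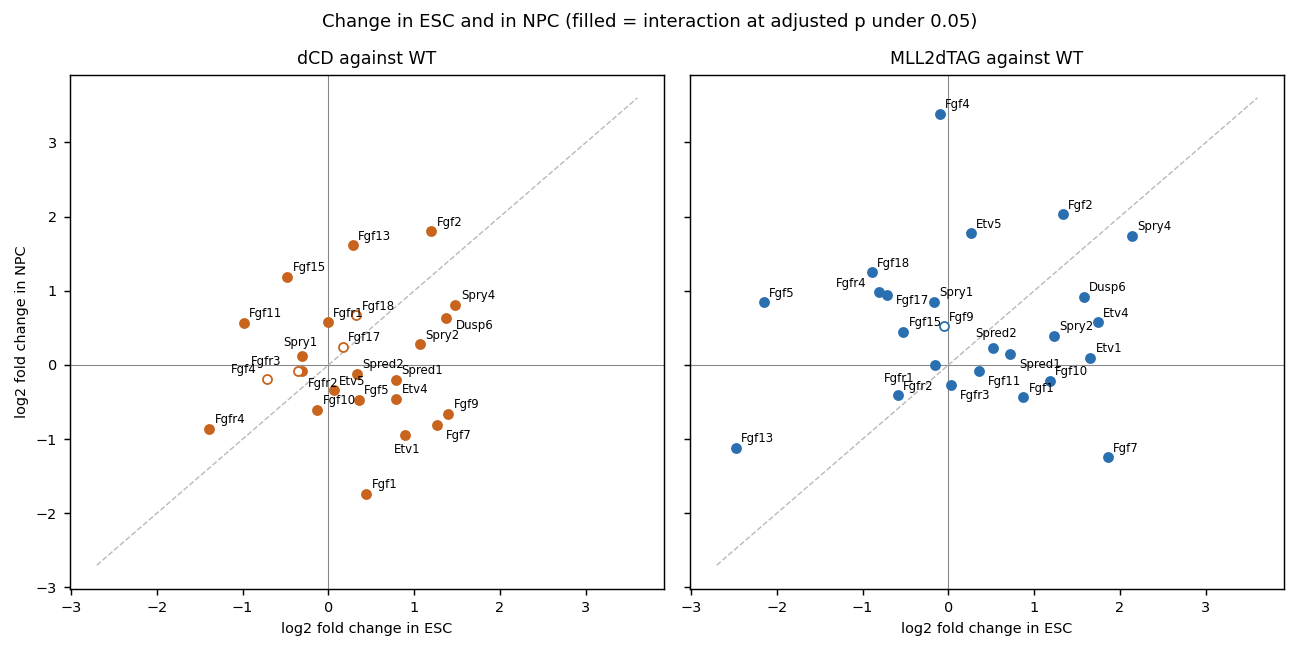
Log2 fold change against WT in ESC (x axis) and in NPC (y axis) for members with a group mean of at least 5 CPM, with dCD on the left and MLL2dTAG on the right; filled points passed the interaction test, and the dashed line marks equal change. Spry2, Spry4, Dusp6, Etv1 and Etv4 lie below the line in both panels, Fgf2 lies above it in both, and Fgf5 and Fgf4 lie far above it in MLL2dTAG.

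The remaining members were low. Fgf22, Fgf21, Fgf12 and Fgf14 reached at most 1.15 CPM in any library, and Fgf16, Fgf6 and Fgf23 at most 0.307 CPM. Of these, Fgf16 had 19 counts in dCD NPC and 2 in WT NPC, a ratio of 9.69 with an exact 95% interval of 2.34 to 85.8 for the counts.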

How the data were processed

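The deposited count table holds whole-number read counts per gene symbol, and the authors counted reads with HTSeq, per the submitters' processing notes. Libraries came from a stranded mRNA kit per the labels' protocols, while aligner, genome build and strand setting are not given in the sources used here. All 18 libraries of 6 groups entered 1 edgeR 4.0.16 quasi-likelihood fit (R 4.3.3, limma 3.58.1) with group means, TMM factors, filterByExpr and 12 residual degrees of freedom. P-values were adjusted by Benjamini-Hochberg over all 20511 tested genes, and adjusted p under 0.05 was called. CPM use the TMM-scaled library totals.

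The 6 columns of this table with ambiguous names, 12 of another table and 18 samples were not analysed here. Values per library are given for members called with at least a 2-fold change and a group mean of at least 5 CPM, and always for Fgfr1 to Fgfr4, Dusp6, Spry2, Spry4, Etv4 and Etv5. Other members named with values (Fgf3, Fgf8, Fgf16 and Fgf20) were chosen after their values were seen. From each pathway list, at most 2 called genes in each direction are named. Members and lists were chosen with earlier results of these data known. Alternatives were other size factors (DESeq2 1.42.0 included), no filter, halved counts, only the groups compared, a replicate block and each library left out. Sequences and per-kilobase lengths come from RefSeq (GRCm38.p6) and from GENCODE M21 exons.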

Additional observations from a re-analysis of the deposited data

Results flagged for a closer look

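The change of an edited line against WT differed between NPC and ESC, by the interaction test of edgeR's fit, for the members below. Each value is the log2 change in NPC minus the log2 change in ESC.

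In dCD, 8 of the 9 feedback and target genes had called negative differences, and Spry1 had a positive one. The negative differences flagged were Spry2 -0.78, Spry4 -0.67, Dusp6 -0.75, Etv1 -1.84, Etv4 -1.24 and Etv5 -0.40. The ligands had differences of Fgf1 -2.17, Fgf7 -2.07, Fgf9 -2.06 and Fgf15 1.67, and the homologous factors of Fgf11 1.56 and Fgf13 1.34. The Fgf9 difference rests on few counts in ESC, 5 in WT and 13 in dCD, and the ESC change was not called in edgeR's fit (adjusted p = 0.096). Receptors had positive differences, of Fgfr1 0.59, Fgfr2 0.23 and Fgfr4 0.53.

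In MLL2dTAG, Etv5 and Spry1 went the other way from the rest of the feedback genes: Spry1 1.02, Spry2 -0.83, Spry4 -0.40, Dusp6 -0.66, Etv1 -1.55, Etv4 -1.16 and Etv5 1.52. The ligands had differences of Fgf1 -1.31, Fgf4 3.49, Fgf5 3.0, Fgf7 -3.10, Fgf10 -1.39, Fgf17 1.66 and Fgf18 2.15, and the homologous factor Fgf13 of 1.36. Receptors had differences of Fgfr1 0.15, Fgfr2 0.19, Fgfr3 -0.30 and Fgfr4 1.79. The Fgf18 difference rests on low counts in ESC, 75 in WT and 50 in MLL2dTAG. The Fgf17 difference rests on few counts in NPC, 18 in WT and 39 in MLL2dTAG, at 0.167 and 0.322 CPM on average with overlapping libraries. The NPC change behind it (0.94, adjusted p = 0.043) lost its call with upper-quartile factors, library totals, no filter and halved counts, and without WT NPC replicate 1 or 2 or MLL2dTAG NPC replicate 2 or 3. The calls of Fgfr1, Fgfr2 and Fgfr3 in MLL2dTAG, and of Fgfr4 and Fgf9 in dCD, were lost under some of the other settings, and that of Spry4 in MLL2dTAG without WT NPC replicate 2 (-0.31) or MLL2dTAG NPC replicate 2 (-0.32).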

How the results depend on the processing

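Of 3693 comparisons of a result with an alternative, 3552 kept their direction and side of the threshold, 112 lost and 16 gained a call, and 13 changed sign, all of the last in values not called at first. The change of Fgfr1 in dCD ESC turned to 0.0060 with DESeq2's size factors, 0.012 with no filter, 0.0069 with the DESeq2 test, and -0.036 to 0.019 with single libraries left out. Fgfr3 in MLL2dTAG ESC turned to -0.021 with upper-quartile factors, and to between -0.068 and 0.20 with libraries left out. Leaving out libraries moved Fgfr1 in MLL2dTAG NPC from -0.028 to 0.0086, and the dCD stage differences of Fgf17 from -0.43 to 0.47 and of Fgf18 from -0.010 to 0.63. The cause was not tested. Counts of members called, with libraries left out, were 18 to 20 (dCD ESC), 24 to 26 (MLL2dTAG ESC), 20 to 22 (dCD NPC) and 23 to 26 (MLL2dTAG NPC). Upper-quartile factors moved the median of all genes between the WT stages to -0.12.

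Same-numbered libraries did not deviate together (r of -0.248 to 0.108 over 11805 genes), so the numbers do not pair them. With the replicate block 19, 26, 22 and 26 members were called in those 4 comparisons, as without it, and no call changed. Depth limits what can be said of the 10 members under 5 CPM.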
